A study of Mus musculus with 8 samples.

Results

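The genes described are 10 members of the Trem2 program of lipid-associated macrophages: Trem2, Tyrobp, Cd9, Cd63, Gpnmb, Spp1, Cd5l, Lipa, Slc37a2 and Cd68. They were taken by symbol from 24821 genes measured in epididymal white adipose tissue, a visceral fat pad of male mice, and each symbol matched 1 row. The tested group was 4 libraries from male Ccdc92 KO mice and the comparison group 4 libraries from age-matched WT littermates, all on a C57BL/6 background and all on a high-fat diet for 14 weeks, of which fat supplied 60% of the calories and protein and carbohydrate 20% each. The labels used here do not give the animals' age, the deleted part of Ccdc92 or whether 1 library stands for 1 animal, so the p-values measure the spread between these libraries, which may be technical. The comparison asks how loss of Ccdc92, a gene for a coiled-coil protein, changes expression in the fat of mice on this diet. Body and fat weights of the groups are not given here.

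In obese adipose tissue, macrophages gather around dying adipocytes, take up the released lipid and break it down in lysosomes. Trem2 is a surface receptor for lipids and lipoproteins that has no signalling tail of its own and signals through the adaptor Tyrobp, also called DAP12. Cells that switch on this program are known as lipid-associated macrophages, and they carry tetraspanins, lysosomal enzymes and secreted glycoproteins that are also seen in microglia and in the foam cells of blood vessels.

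Recovered reads per library ran from 23681088 to 33817478. Ccdc92 itself had normalized counts of 9.2, 5.1, 9.7 and 4.9 in KO replicates 1 to 4, against 54.1, 68.3, 105.8 and 99.2 in WT replicates 1 to 4. Epididymal transcripts were far more abundant in WT libraries, with a summed level over 11 marker genes of 10.9 to 1542 normalized counts in KO and 53530 to 119660 in WT. KO replicate 3 carried a large share of red cell RNA, with Hbb-bs, a beta-globin gene, at 5.78% of its reads. Genes that reached 10 normalized counts in 4 or more of the 8 libraries were tested with limma on log2(normalized count + 1), and a gene was called at a Benjamini-Hochberg adjusted p under 0.05 over the 17798 genes tested.

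All 10 members fell in KO fat (limma, adjusted p from 0.00037 for Trem2 to 0.0263 for Cd5l), where 21.5% of all genes tested were called lower and 20.2% higher, 41.7% in all. That background split moved with the scaling, with 3831 genes lower and 3592 higher as deposited, 4674 and 1893 as counts per total library reads (CPM), and 3174 and 4743 after quantile normalization. The members' median log2 fold change was -2.93, beside -0.01 over all genes tested. Every member passed the filter on low values in both groups, the lowest value being 38.8 normalized counts for Spp1 in KO replicate 4. The falls differed greatly in size. Spp1, Gpnmb and Trem2 were 29.4-fold, 26.7-fold and 17.6-fold lower on the fitted scale, whereas Cd9 was 3.57-fold and Cd63 2.22-fold lower. For 9 members the groups did not overlap, as in 21.1% of genes tested with KO below WT, beside 21% with KO above WT. Cd5l was the exception. In bulk tissue, fewer macrophages and less of a transcript per macrophage cannot be told apart.

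**Figure D1:**
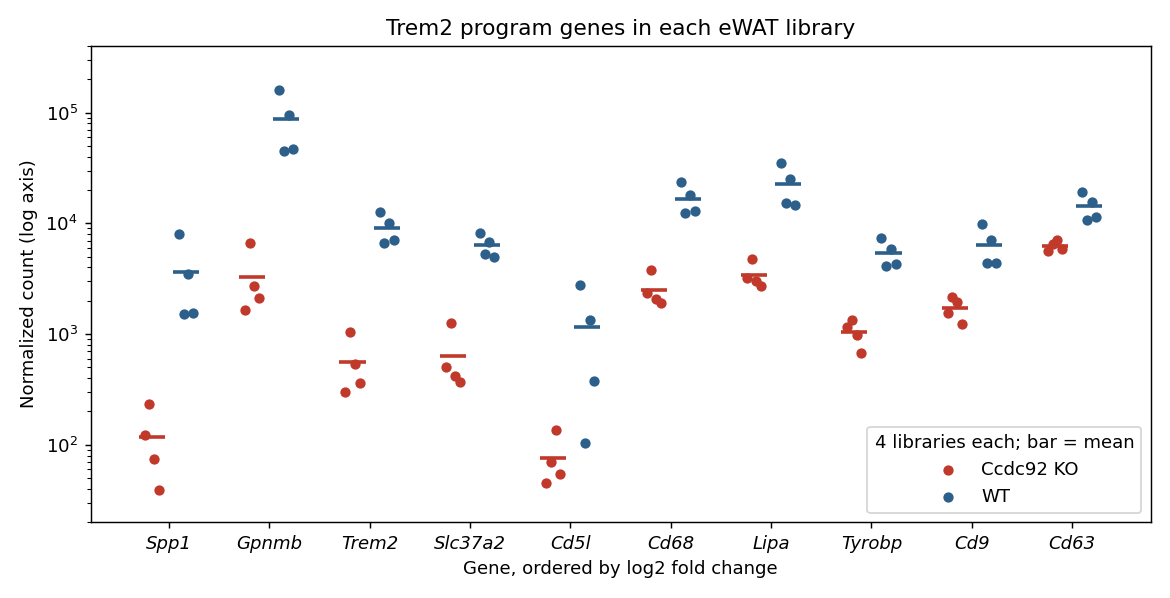
Normalized counts (log axis) of the 10 Trem2 program genes in each library, with 4 Ccdc92 KO libraries left of 4 WT libraries for each gene and a bar at the group mean. The KO points lie below all WT points for every gene but Cd5l, for which KO replicate 3 (135.4) lies above WT replicate 2 (102.9).

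Trem2, the lipid receptor (ENSMUSG00000023992.14, chromosome 17, 48346401 to 48354147, plus strand, GRCm38), had normalized counts of 302.2, 1051.9, 540.7 and 363.8 in KO replicates 1 to 4, against 12737, 6655.7, 10000.6 and 7104.8 in WT replicates 1 to 4. The highest KO library was far below the lowest WT library, at a WT-to-KO ratio of 6.33 between these values. The KO mean of 565 ± 340.2 was 6.19% of the WT mean of 9125 ± 2828 (SD, n = 4 each). The log2 fold change was -4.14 with an SE of 0.39 (limma adjusted p = 0.00037). All 70 ways to split the libraries into 4 and 4 were also compared, which gave a two-sided exact permutation p of 0.0286, the smallest possible. Of the genes tested, 0.893% had a lower log2 fold change. The stretch around the RefSeq start of Trem2 is shown because 2 of the motifs searched fall near its start; capitals mark letters that match a motif described further on (chr17:48346151-48346450, plus strand, GRCm38.p6).
Trem2: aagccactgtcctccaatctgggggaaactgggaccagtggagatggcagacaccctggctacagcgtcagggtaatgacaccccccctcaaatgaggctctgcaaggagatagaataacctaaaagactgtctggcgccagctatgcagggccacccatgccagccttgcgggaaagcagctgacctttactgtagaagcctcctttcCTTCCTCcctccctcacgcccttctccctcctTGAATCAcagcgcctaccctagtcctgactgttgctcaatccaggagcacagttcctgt

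Tyrobp, the adaptor that carries the signal of Trem2 and of several other myeloid receptors (ENSMUSG00000030579.10, chromosome 7, 30413760 to 30417585, plus strand), had normalized counts of 1154.9, 1327.1, 986.8 and 668.2 in KO, against 7329.4, 4080.4, 5878.9 and 4321.1 in WT. Its groups did not overlap either, and its log2 fold change was -2.39 with an SE of 0.25 (limma adjusted p = 0.00049). The receptor fell further than its adaptor. In KO replicates 1 to 4, the Trem2 count was 26.2%, 79.3%, 54.8% and 54.4% of the Tyrobp count, against 174%, 163%, 170% and 164% in WT replicates 1 to 4. The WT libraries lay close together and all KO libraries lay below them. The log2 ratio of Trem2 to Tyrobp differed by -1.75 between KO and WT, a 3.36-fold lower ratio (two-sided exact permutation p = 0.0286 over 70 splits, the smallest possible). These percentages compare read counts of genes of different length, so only the change between groups can be read from them.

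**Figure D2:**
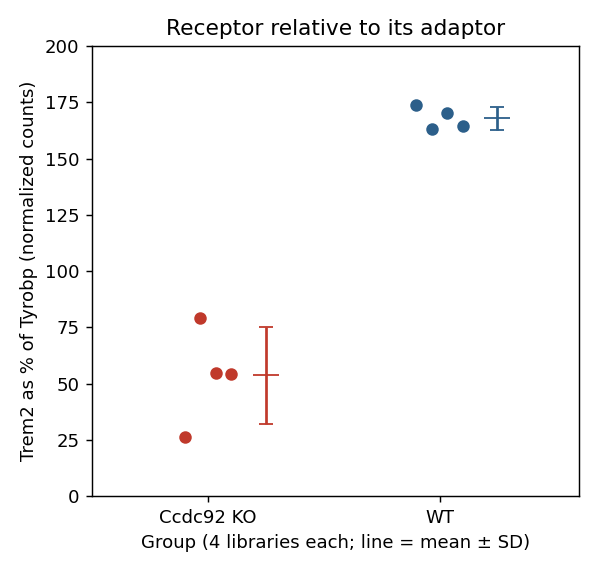
Trem2 as a percentage of Tyrobp, both in normalized counts, in the 4 Ccdc92 KO and the 4 WT libraries, with the mean ± SD of each group beside the points. The KO libraries spread from 26.2% to 79.3% and the WT libraries from 163% to 174%.

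The 2 tetraspanins, membrane proteins that organise other surface proteins into clusters, had the smallest falls. Cd9 (ENSMUSG00000030342.8, chromosome 6), a surface tetraspanin that many cell types make, had normalized counts of 1562.8, 2153.5, 1959.5 and 1238.2 in KO, against 9841, 4370.8, 7099.6 and 4347.3 in WT. Its log2 fold change was -1.84 with an SE of 0.29 (limma adjusted p = 0.00191). Cd63 (ENSMUSG00000025351.14, chromosome 10), the tetraspanin of late endosomes and lysosomes, had 5572.1, 6539.8, 7048.1 and 5896.4 in KO, against 19272, 10669.8, 15628.8 and 11521.4 in WT, a log2 fold change of -1.15 with an SE of 0.19 (limma adjusted p = 0.00221). The KO mean of Cd63 was 43.9% of the WT mean and that of Cd9 26.9%. Cd63 was also the most even member among the KO libraries, with a highest value 1.26 times the lowest.

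Gpnmb and Spp1, glycoproteins made by activated and lipid-laden macrophages, fell most. Gpnmb (ENSMUSG00000029816.10, chromosome 6, 49036546 to 49070929, plus strand), a membrane glycoprotein from which a soluble part is shed, had normalized counts of 1653.6, 6667.2, 2717.3 and 2117.5 in KO, against 159594, 45461.2, 95352.1 and 46544.5 in WT. Its log2 fold change was -4.74 with an SE of 0.53 (limma adjusted p = 0.000578). The KO mean of 3289 ± 2294 was 3.79% of the WT mean of 86738 ± 53856 (SD, n = 4 each). Its start region is shown for its AP-1 type match, which differs from that of Trem2 in the middle base (chr6:49036268-49036567, plus strand, GRCm38.p6, capitals as before).
Gpnmb: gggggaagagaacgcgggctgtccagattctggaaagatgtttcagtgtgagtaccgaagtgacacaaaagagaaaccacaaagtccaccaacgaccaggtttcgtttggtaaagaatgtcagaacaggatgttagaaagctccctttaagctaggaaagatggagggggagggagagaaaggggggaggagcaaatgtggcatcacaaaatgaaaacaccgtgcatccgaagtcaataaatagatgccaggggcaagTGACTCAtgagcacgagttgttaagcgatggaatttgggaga

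Spp1 (ENSMUSG00000029304.14, chromosome 5), which encodes the secreted matrix protein and cytokine osteopontin, had normalized counts of 123, 231.6, 75.2 and 38.8 in KO, against 7983.4, 1517.5, 3483 and 1556.2 in WT. The log2 fold change was -4.88 with an SE of 0.66 (limma adjusted p = 0.00105). Both groups were uneven, with the highest library 5.97 times the lowest in KO and 5.26 times in WT, yet the lowest WT value was 6.55 times the highest KO value.

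Cd5l, a secreted scavenger receptor cysteine-rich protein of tissue macrophages (ENSMUSG00000015854.7, chromosome 3), was the member with the least certain fall. Its normalized counts were 44.8, 70.1, 135.4 and 54.6 in KO, against 2794.2, 102.9, 1336.8 and 375.5 in WT. WT replicate 2 was within the KO range, and the WT values differed among themselves by 27.2 times. The log2 fold change was -3.13 with an SE of 0.93 (limma adjusted p = 0.0263). The limma adjusted p was 0.064, 0.0521 and 0.0618 without KO replicate 1, 2 or 4, 0.0549 and 0.071 without WT replicate 1 or 3, and 0.0501 without KO replicate 3 and WT replicate 4 together. The log2 fold change was -2.41 without WT replicate 1 and -3.99 without WT replicate 2.

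Lipa and Cd68, both of lysosomes, fell by amounts close to each other. Lipa (ENSMUSG00000024781.16, chromosome 19), the acid lipase that splits cholesteryl esters and triglycerides in lysosomes, had normalized counts of 3179.6, 4775.2, 3006.5 and 2723.8 in KO, against 34999.4, 15380, 25352.8 and 14721.8 in WT. Its log2 fold change was -2.66 with an SE of 0.30 (limma adjusted p = 0.000602). Cd68 (ENSMUSG00000018774.13, chromosome 11, 69664213 to 69666153, minus strand), the heavily glycosylated lysosomal membrane protein macrosialin, had 2363.7, 3761.7, 2053.1 and 1902.8 in KO, against 23509.1, 12349.8, 18108.3 and 12969.9 in WT, a log2 fold change of -2.73 with an SE of 0.27 (limma adjusted p = 0.000406). KO means were 15.1% of WT means for both genes. The start region of Cd68 is shown for its pair of AP-1 type matches (chr11:69666121-69666420, minus strand, GRCm38.p6).
Cd68: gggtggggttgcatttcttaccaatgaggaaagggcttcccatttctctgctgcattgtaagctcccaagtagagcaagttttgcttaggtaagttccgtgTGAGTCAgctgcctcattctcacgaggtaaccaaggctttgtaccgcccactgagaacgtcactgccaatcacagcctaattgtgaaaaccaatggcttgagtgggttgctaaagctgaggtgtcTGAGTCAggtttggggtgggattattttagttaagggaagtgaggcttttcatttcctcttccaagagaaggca

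Slc37a2, a sugar phosphate exchanger of the endoplasmic reticulum that is abundant in macrophages (ENSMUSG00000032122.15, chromosome 9, 37227585 to 37255738, minus strand), had normalized counts of 509.1, 1247.6, 417.1 and 366.3 in KO, against 8244, 5278.6, 6831.4 and 4974.7 in WT. It was 11.1-fold lower in KO on the fitted scale, at a log2 fold change of -3.47 with an SE of 0.37 (limma adjusted p = 0.000497). KO replicate 2 held a value well above the other KO libraries but below every WT library. The annotation places the pseudogene Gm10177 within Slc37a2 on the opposite strand, with 1280 reads over all 8 libraries, and the strand setting of the counting is not given in the sources used here. Its start region also holds an AP-1 type match (chr9:37255689-37255988, minus strand, GRCm38.p6).
Slc37a2: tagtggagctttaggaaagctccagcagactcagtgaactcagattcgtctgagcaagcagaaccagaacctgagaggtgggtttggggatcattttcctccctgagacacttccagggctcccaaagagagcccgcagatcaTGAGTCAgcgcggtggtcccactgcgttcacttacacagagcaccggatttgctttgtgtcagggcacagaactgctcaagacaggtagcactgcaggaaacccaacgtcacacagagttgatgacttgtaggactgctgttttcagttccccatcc

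WT replicate 1 was the highest WT library for all 10 members, and the lowest was WT replicate 2 for 7 members and WT replicate 4 for the other 3 (Cd9, Lipa and Slc37a2). KO replicate 2 was the highest KO library for 8 members, and KO replicate 3 for Cd63 and Cd5l. KO replicate 4 was the lowest for 6 members and KO replicate 1 for 4. Together the members took 0.0585%, 0.0965%, 0.0521% and 0.0535% of the reads in KO replicates 1 to 4, against 1.04%, 0.397%, 0.706% and 0.406% in WT replicates 1 to 4. The group means were 0.0652% ± 0.0211 in KO and 0.638% ± 0.306 in WT (SD, n = 4 each), and the highest KO share was below the lowest WT share. The make-up of that share differed too. With reads pooled over the libraries of a group, Gpnmb gave 17.5% of all member reads in KO and 50.4% in WT. Cd63 gave 31% in KO and 8.26% in WT. KO replicate 2 weighs most in the pooled KO values, with 32562 member reads beside 12674 to 17620 in the other KO libraries.

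Most members fell by more than general macrophage transcripts did. The comparison was 15 genes expressed across macrophages (among them Adgre1, Csf1r, Fcgr1, Mertk, Cd14, Aif1, Spi1, Lyz2, C1qa, C1qb, C1qc, Ms4a7, Cd163 and Mrc1), of which 12 fell and 1, the haemoglobin scavenger receptor Cd163, rose (1.45, limma adjusted p = 0.00156). Among the 12 were Ms4a7 (-2.36), C1qc (-1.36) and Spi1 (-2.23). Their mean log2 level was 10.98 ± 0.32 in KO and 12.31 ± 0.19 in WT (SD, n = 4 each), a 2.52-fold difference. The lowest log2 fold change among them was -2.51, for the Fc receptor gene Fcgr1, named after its value was seen, and 7 of the 10 members lay below it. When this mean was subtracted in each library from every gene and the limma fit repeated, 7 members were called lower in KO, beside 3.74% of all genes tested. The members called on this macrophage scale included Tyrobp (-2.39 before subtraction), which did not lie below Fcgr1. They did not include Cd5l (-3.13 before subtraction), which did. On that scale 79.3% of all genes were called higher and 83% in either direction, the subtraction having moved the median of all genes to 1.32. The groups of the 7 members called lower on that scale did not overlap, as in 2.73% of genes with KO below WT and 76% with KO above WT. These 7 were Spp1 (-3.55, SE 0.58), Gpnmb (-3.41, SE 0.48), Trem2 (-2.80, SE 0.35), Slc37a2 (-2.14, SE 0.28), Cd68 (-1.40, SE 0.23), Lipa (-1.33, SE 0.25) and Tyrobp (-1.06, SE 0.21), and the highest limma adjusted p among them was 0.000624, for Spp1.

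The other 3 members did not pass on the macrophage scale. Cd9 was at -0.50 (SE 0.25, limma adjusted p = 0.0695), Cd63 at 0.18 (SE 0.24, limma adjusted p = 0.49) and Cd5l at -1.80 (SE 1.02, limma adjusted p = 0.142). For Trem2, the values on this scale were -3.08, -1.14, -1.68 and -2.16 in KO replicates 1 to 4, against 1.08, 0.60, 0.94 and 0.55 in WT replicates 1 to 4, so that all KO libraries lay below all WT libraries. The choice of comparison genes moved the value of every member. Against 10 general leukocyte genes, all 10 of which fell (median -1.92; Cd52, Lcp1, Was and Laptm5 had the smallest p values), Tyrobp no longer passed (-0.31, limma adjusted p = 0.198), Cd63 was called higher (0.92, limma adjusted p = 0.00217) and Cd9 turned to 0.24 (limma adjusted p = 0.358). The falls of Lipa (-0.59, limma adjusted p = 0.0357) and Cd68 (-0.66, limma adjusted p = 0.0164) were smaller against these genes but still passed, and Trem2 was at -2.06, Slc37a2 at -1.40, Gpnmb at -2.67 and Spp1 at -2.81. The leukocyte genes include Cd52, which fell most of the 10 (-4.34) and is also counted below among other lipid-associated macrophage genes. How far Cd52 moved these values was not tested. Against Csf1r alone, Cd9 passed as lower (-0.65, limma adjusted p = 0.0311).

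**Figure D3:**
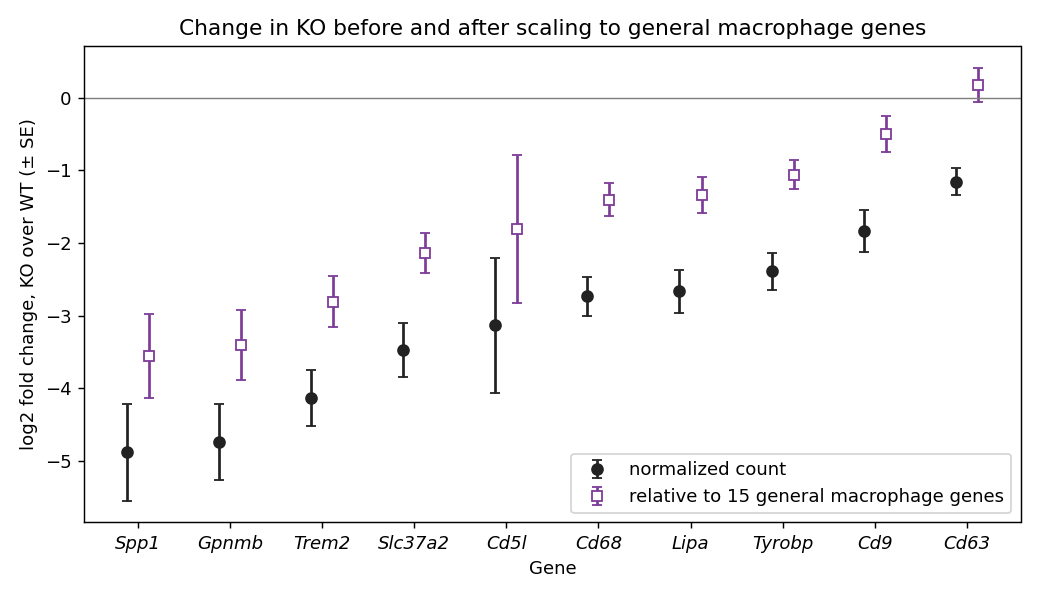
log2 fold change of KO over WT with its SE for each member, on normalized counts (filled circles) and after subtracting the mean log2 level of 15 general macrophage genes in each library (open squares). The squares of Spp1 (-3.55), Gpnmb (-3.41) and Trem2 (-2.80) stay far below 0, and that of Cd63 (0.18) lies near it.

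Per kilobase of merged exons, the order of levels differed between the groups. In KO, Cd68 had 2005 ± 676 normalized counts per kilobase, Cd63 1701 ± 179, Tyrobp 1551 ± 421 and Cd9 846 ± 200.1, followed by Gpnmb at 505 ± 352 and Lipa at 505 ± 136 (SD, n = 4 each). The lowest in KO were Trem2 at 114 ± 68.8, Slc37a2 at 95.6 ± 62.1, Spp1 at 71.1 ± 50.8 and Cd5l at 37.4 ± 20.05. In WT, Gpnmb had 13316 ± 8268, Cd68 13313 ± 4138 and Tyrobp 8100 ± 2267, followed by Cd63 at 3876 ± 1079, Lipa at 3335 ± 1413, Cd9 at 3138 ± 1284, Spp1 at 2206 ± 1845, Trem2 at 1845 ± 572, Slc37a2 at 953 ± 228 and Cd5l at 566 ± 597. In KO, the only neighbours that differed by more than the larger of their SDs were Tyrobp over Cd9 and Lipa over Trem2. In WT they were Cd68 over Tyrobp, Tyrobp over Cd63 and Trem2 over Slc37a2. The levels depend on the length used. Per kilobase of the longest protein-coding transcript, Trem2 was at 519 in KO and 8387 in WT, and Cd63 at 5648 in KO and 12870 in WT. On that length Gpnmb was at 889 in KO and 23436 in WT, Cd9 at 1408 in KO and 5224 in WT, and Lipa at 1152 in KO and 7617 in WT. Tyrobp was at 1732 in KO and 9049 in WT. Cd63 thus lay above Tyrobp in both groups on that length, whereas on merged exons it did so only in KO.

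The start regions of 9 members, from 250 bases before to 50 bases after each RefSeq start, were searched on both strands for 5 motifs. The AP-1 type motif (TGANTCA, N being any base) was found in the windows of Trem2, Gpnmb, Slc37a2 and Cd68, that is in 4 of 10 member windows, Spp1 having 2, beside 7.81% of all windows of this length. The letters were TGAATCA for Trem2, TGACTCA for Gpnmb and TGAGTCA for Slc37a2 and Cd68. The PU.1-type motif (GAGGAAG) was found for Trem2, Spp1, Cd5l, Cd63 and Lipa, in 5 of 10 windows beside 13.6% of all windows. The Cd63 window (chr10:128909095-128909394) lies inside the annotated gene, which runs from 128900989 to 128912822 on the plus strand. The annotated start of Cd63 was thus not searched. The E-box of lysosomal genes (TCACGTG) and the M-box (TCATGTG), both known as binding letters of MiT family factors, were found in none of the 10, beside 3.77% of all windows for each. The letters of the TATA box (TATAAA) were found for Spp1 and Lipa, beside 13.6% of all windows. They lay far from the start, at -211 to -206 for Spp1 and, on the strand opposite to the gene, at -239 to -234 for Lipa. In the Trem2 window printed above, the PU.1-type match lies 41 to 35 bases and the AP-1 type match 9 to 3 bases before the start. The 2 motif types do not overlap in that window. A match describes letters and not binding.

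Genes that act with the members were next examined, and values in parentheses are log2 fold changes of KO over WT. Of 23 genes linked to Trem2 and Tyrobp signalling, phosphatases among them, 22 fell, with a median log2 fold change of -1.59. On the macrophage scale 9 were lower and 3 higher, with a median of -0.26, beside 3.74% of all genes tested lower and 79.3% higher. Those that fell included the exchange factor Vav1 (-2.04), the linker Blnk (-2.48), the inositol phosphatase Inpp5d (-1.59) and the adaptor Pik3ap1 (-2.62). Among Trem family and Tyrobp-coupled receptors, 8 of 15 tested fell, Trem2 itself among them. Pilrb1, named after its value was seen, rose (0.67), a call lost on a CPM scale (limma adjusted p = 0.159). Cd300lb (-2.97), Cd300ld (-2.24) and Siglec15 (-5.25) were lower along with Trem2, and the list had a median of -1.15. Siglec15 was near its floor in KO, at 0 to 15.4 normalized counts against 79.6 to 174 in WT, so its fold depends on the value added before the logarithm. Reads of the Cd300, Pilrb and Sirpb1 genes of this list could have been split between related copies. Of 9 genes for Trem2 cleavage and ligands, 5 fell, among them the ligand galectin-3, Lgals3 (-2.91), and the sheddases Adam17 (-1.09) and Adam10 (-0.59), and the median was -0.33. Osteopontin receptors fell in 4 of 9 tested, namely Cd44 (-2.50), Itga4 (-1.43), Itga5 (-1.29) and Itgav (-1.13), with a median of -0.53.

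Families of the members moved unevenly, and the counts include the members themselves. The tetraspanins hold Cd9 and Cd63, the lysosomal genes Cd68 and Lipa, the Slc37 family Slc37a2, and the scavenger receptor cysteine-rich genes Cd5l. On the macrophage scale 2 of the 28 tetraspanins were lower and 20 higher. Of the 17 lysosomal genes, 3 were lower (Cd68, Lipa and Soat1) and 8 higher. Over all genes tested, 3.74% were called lower and 79.3% higher on that scale. Of 28 tetraspanins, 8 fell and 9 rose (median 0.21), but on a CPM scale 8 fell and 4 rose (median 0.04). The leukocyte tetraspanins Cd53 (-1.90) and Cd37 (-1.49) fell with Cd9 and Cd63, Upk1a of the urothelium fell to 3.45 to 8.60 normalized counts in KO, against 65.1 to 237 in WT, and Tspan7 rose, at 2629 to 2972 normalized counts in KO and 586 to 1247 in WT. Of 17 lysosomal membrane and lipid genes, 14 fell (median -0.89), among them Galc (-1.42), a galactosylceramide-splitting enzyme, and Soat1 (-2.56), which esterifies cholesterol in the endoplasmic reticulum. The acid sphingomyelinase Smpd1, named after its value was seen, rose (0.61). In the Slc37 family, Slc37a2 and Slc37a1 (-1.72) fell, while Slc37a3 was at -0.10 and Slc37a4 at 0.04 (-0.13 on a CPM scale), neither of which passed, and the median of the 4 was -0.91. Among 15 scavenger receptor cysteine-rich genes, 7 fell, among them Msr1 (-2.75), Cd5 (-1.64) and Ssc5d (-1.27), and Cd163 rose, with a median of -0.69.

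Of 10 partners and regulators of Gpnmb and Cd5l, 6 fell and 2 rose, with a median of -0.61. The MiT factors Tfeb (-0.89) and Tfe3 (-0.68), known to drive Gpnmb, and the Gpnmb-binding proteoglycan Sdc4 (-0.54) fell. Rxra (0.71) and, named after its value was seen, Nr1h3 (0.56), nuclear receptor genes that drive Cd5l, rose. The Nr1h3 call was lost on a CPM scale (limma adjusted p = 0.0531). Other genes of lipid-associated macrophages fell in 25 of 34 tested, with a median of -1.55, but on the macrophage scale 14 were lower and 10 higher, with a median of -0.22. The examples with the smallest p were Syngr1 (-3.01), the cholesteryl ester hydrolase Nceh1 (-2.89), Cd52 (-4.34, also among the leukocyte genes above) and the lectin Clec7a (-2.58). The 3 that rose, named after their values were seen, were Lpl (0.70), Fabp4 (1.38) and Lgals1 (0.50). Under quantile normalization Lpl turned to -0.25 (limma adjusted p = 0.48) and Fabp4 no longer passed (limma adjusted p = 0.0985), and Lgals1 lost its call on a CPM scale (limma adjusted p = 0.16). Lpl and Fabp4 are also abundant in adipocytes. On the macrophage scale, where 79.3% of all genes were called higher and 3.74% lower, 7 of the 15 receptors, Trem2 among them, were lower and 4 higher. There 1 of the 9 cleavage and ligand genes and 1 of the 9 osteopontin receptors were lower, with 5 higher in each. None of the 10 partners of Gpnmb and Cd5l and 1 of the 15 scavenger receptor cysteine-rich genes were lower on that scale, with 6 and 8 higher.

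**Figure D4:**
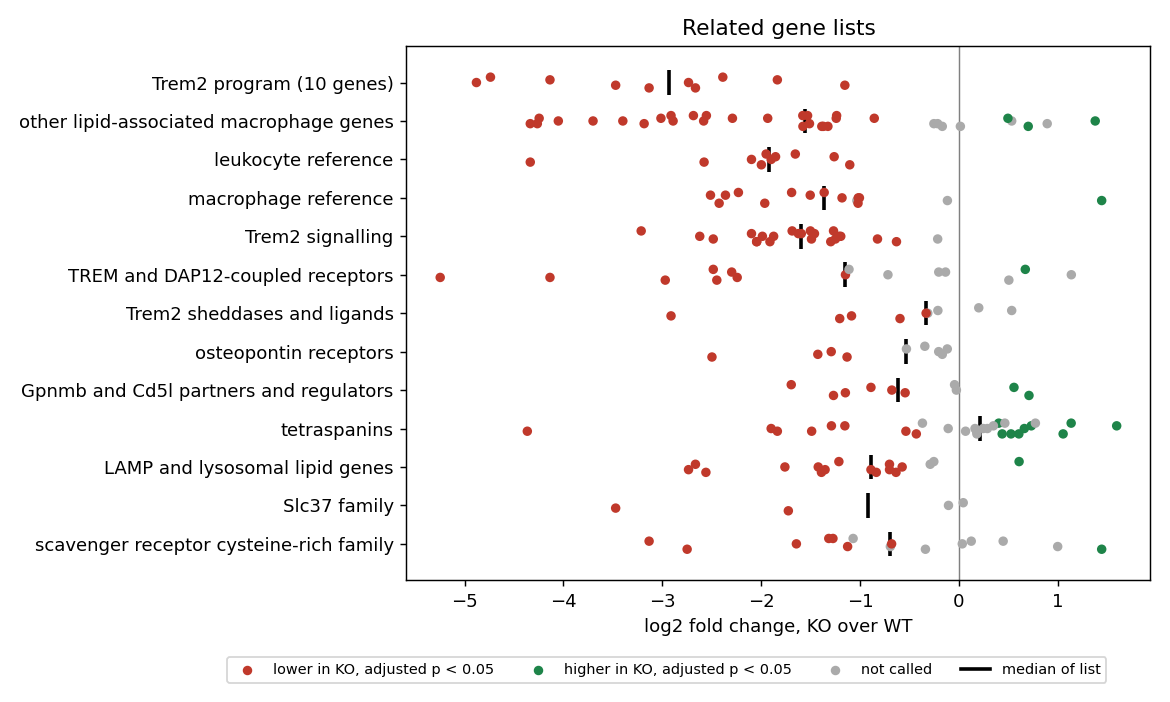
log2 fold change of KO over WT for each tested gene of the Trem2 program and of 12 related lists, 1 point per gene, coloured by its limma call, with a black bar at the median of each list. Some of the related lists also hold members. Points of Trem2 signalling lie almost wholly on the lower side (22 of 23 called lower), while the tetraspanins lie on both sides (8 lower and 9 higher).

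The genes whose profile over the 8 libraries was most like that of Trem2 were Atp6v0d2, Htr2b, Zranb3, Adam8 and Rgs1, out of 13048 protein-coding genes with a mean of at least 50 normalized counts. Likeness was the root mean square difference of log2 values after centring each gene, and it was 0.19 for Atp6v0d2, a proton pump subunit, 0.25 for the serotonin receptor Htr2b, 0.28 for the DNA-remodelling enzyme Zranb3, 0.28 for the metalloprotease Adam8 and 0.31 for Rgs1. Atp6v0d2 had normalized counts of 228.7, 909.2, 326.8 and 221.9 in KO, against 10033.6, 5562.3, 7635.3 and 4634.8 in WT, with KO replicate 2 highest in KO and WT replicate 1 highest in WT, as for Trem2. The closest members were Gpnmb (0.41) and Slc37a2 (0.45), and the farthest was Cd63 (1.55). These genes were picked for their likeness, so it is a description.

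Markers of other cells moved between the same groups. The 15 adipocyte markers summed to 1381800 to 1814820 normalized counts in KO and 284904 to 619737 in WT, with 13 higher in KO. The 7 mast cell markers summed to 953 to 1292 in KO and 3961 to 11381 in WT, and the 15 macrophage genes to 53540 to 79404 in KO and 125316 to 253026 in WT. Of 8 dendritic cell markers 3 rose, and their sums were 1334 to 1693 in KO and 939 to 1231 in WT. The 8 osteoclast markers, which include Atp6v0d2 (Calcr was not analysed here), summed to 10848 to 13597 in KO and 18716 to 34511 in WT, with 5 of 6 tested lower and 1, Acp5, named after its value was seen, higher. Of the other lists, T cell markers fell in 7 of 9 genes, and fibroblast markers in 4 of 7, while endothelial markers rose in 5 of 7 and neutrophil markers in 2 of 3 tested. Mesothelial markers (2 of 7 lower, median 0.53) and B cell markers (1 of 6 lower, median -1.66) were mostly not called, beside 21.5% of all genes called lower. Among 8 tested of 11 epididymal markers 5 fell, and Crisp1 was at 0 to 37.6 in KO and 26575 to 71825 in WT. The part of these differences in the members' falls was not tested. Without KO replicate 3 and WT replicate 4 together, 9 members were lower, but the groups stayed fully apart in epididymal transcripts, at 10.9 to 336 in KO and 53530 to 114162 in WT.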

How the data were processed

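RNA of epididymal fat was sequenced in 8 libraries, 4 KO and 4 WT. The table deposited by the authors holds a normalized signal per gene and library, that is gene counts divided by 1 size factor per library. Per the submitters' processing notes, the tools were STAR 2.7.7 and DESeq2 and the build was GRCm38.p6, while the counter, strand setting and annotation were not given in the sources used here. Within a tolerance of 0.01, 100% of values were whole multiples of 1 read, so reads were recovered (23681088 to 33817478 per library), and the size factors of 0.8246 to 1.1702 equalled recomputed medians of ratios. Of 24821 gene IDs, 24802 matched GENCODE M21 without version and 19 did not. No pair of libraries of a group agreed within sampling noise. Depth limits precision by counting error only.

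Genes with at least 10 normalized counts in at least 4 libraries entered limma 3.58.1 (trend and robust settings, R 4.3.3) on log2(normalized count + 1), and fold changes on this scale understate those of low genes. Adjusted p values are Benjamini-Hochberg over all genes tested. In the second fit the mean log2 level of 15 macrophage genes was subtracted in each library. Trem2 and its ratio to Tyrobp were also given exact permutation tests. Alternatives were other pseudocounts, filters and scalings, edgeR 4.0.16 and DESeq2 1.42.0 on recovered reads, a replicate block and libraries left out. The scripts were tested on simulated data. In the simulated counts for the limma fit few genes changed, equally many up and down, so they do not bear on the scaling. The members and lists were chosen with earlier results of these data known. Named are Ccdc92, all members, the 4 genes of each list with the smallest p, all genes of lists of up to 6, and the 5 genes most like Trem2. Some genes that this rule selects are not reported here. Promoter windows came from RefSeq (GRCm38.p6) for 9 members, and gene coordinates from GENCODE M21.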

Additional observations from a re-analysis of the deposited data

Results flagged for a closer look

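KO replicate 2 stood apart from the other KO libraries in 2 values. Slc37a2 had a normalized count of 1248 there, where the other KO libraries had 366.3 to 509.1, so that its gap to the nearest library was 0.838 of the group's range. The summed share of reads of the 10 members was 0.0965% in KO replicate 2, where the other KO libraries had 0.0521% to 0.0585%, a gap of 0.856 of the range. Both gaps are above the 95% critical value of Dixon's test for 4 samples. In all, 44 groups of values were examined, and chance flags about 1 in 20.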

How the results depend on the processing

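The count of members lower in KO was 9 or 10 under all 18 alternatives, and the 9 members other than Cd5l kept their calls in each of them. Among all genes, 1893 were higher on a CPM scale, against 3592 as deposited. With libraries left out in turn, 2931 to 3669 genes were lower and 2710 to 3410 higher, and the log2 fold change of Trem2 was -4.49 to -3.89 and its log2 ratio to Tyrobp differed by -1.97 to -1.44. Without KO replicate 3 and WT replicate 4 together these were -4.28 and -1.80 (exact permutation p = 0.1 for both, the smallest that 3 against 3 allows). On the macrophage scale 6 to 8 members were lower under 15 alternatives. With general leukocyte genes, Cd52 among them, in place of macrophage genes, 1 member was higher, and Cd9 turned to 0.24. Without KO replicate 3 and WT replicate 4 together, Cd63 turned to -0.022. On that scale Cd9 passed as lower with both libraries out (limma adjusted p = 0.016) and with either out (0.031 without KO replicate 3 and 0.0343 without WT replicate 4), and Cd5l passed without WT replicate 2 (0.0209). The cause was not tested.

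Same-numbered KO and WT libraries correlated in their deviations from the group means at -0.14, 0.05, -0.04 and 0.17, so the numbers were not taken as pairs. A fit with the replicate number as a block called all 10 members lower, and 3277 genes lower and 2989 higher, against 3831 and 3592 without it; on the macrophage scale it called 8 members lower, Cd9 being the added one. Depth limits Cd5l and Spp1 most, whose lowest KO libraries held 39 and 32 reads.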
